A study of Mus musculus with 12 samples.

Results

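The genes described here are *Cxcl12*, *Cxcl13*, and *Pf4*, 3 of the 43 genes of a NanoString myeloid panel that was hybridized to RNA from 12 B16.F10 tumors. They were taken by name as the chemokines associated with stroma, lymphoid follicles, and platelets. B16.F10 is a murine melanoma cell line, and the tumors were grown under the skin of female C57BL/6J mice (*i.e.* 6 to 8 weeks old) to about 200 mm3. Each tumor then received 100 µL in 1 injection into the tumor, which held PBS, free D-PDB (*i.e.* the endosome-disrupting polymer carrier by itself, at the dose matched to NanoISD), or NanoISD (*i.e.* D-PDB complexed to double-stranded DNA that activates the cytosolic DNA sensor cGAS) at 2 µg of DNA, with 4 tumors for each treatment and harvest after 6 hours. Each tumor was a graft of an established line in a host with its own stroma and immune cells, and RNA was taken from the whole tumor, so that a change in the number of expressing cells cannot be told apart from a change in RNA per cell.

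Chemokines are small secreted proteins that direct the movement of cells that carry the matching receptor. *Cxcl12* encodes the ligand of CXCR4, is produced by fibroblasts and endothelium in many tissues without an inflammatory stimulus, and holds hematopoietic and lymphoid cells in their niches. *Cxcl13* encodes the ligand of CXCR5, is made by follicular stromal cells of lymphoid organs, draws B cells into follicles, and is a known marker of lymphoid aggregates in tumors. *Pf4* (*i.e.* platelet factor 4, or Cxcl4) is stored in the granules of platelets, binds heparin, and is transcribed in megakaryocytes and in some macrophages. The labels give the tissue as melanoma, which could not be checked against its markers, since 0 of 5 melanoma genes looked for (*e.g.* *Mlana*, *Tyr*) are on the panel. Of 25 markers of 8 cell types, the only ones on the panel are *Pf4* itself and *Ppbp*, and none of the receptors *Cxcr4*, *Ackr3*, *Cxcr5*, and *Cxcr3* is measured.

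The upstream sequences of the genes are shown to give the base composition and the motifs that *Cxcl12* and *Cxcl13*, which both rose after NanoISD, do and do not share. Each is the 250 bases before the RefSeq start of the gene, from GRCm38.p6, read 5′ to 3′ on the plus strand. *Cxcl12* lies at chr6:117168285-117168534, *Cxcl13* at chr5:95956689-95956938, and *Pf4* at chr5:90772185-90772434. Capitals mark matches on either strand to the motifs that were searched.
Cxcl12: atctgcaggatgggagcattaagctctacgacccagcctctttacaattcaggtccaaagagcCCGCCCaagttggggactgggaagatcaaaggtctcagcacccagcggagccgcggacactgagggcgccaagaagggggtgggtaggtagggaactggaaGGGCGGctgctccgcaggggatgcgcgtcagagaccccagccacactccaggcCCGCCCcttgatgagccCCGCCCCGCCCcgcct
Cxcl13: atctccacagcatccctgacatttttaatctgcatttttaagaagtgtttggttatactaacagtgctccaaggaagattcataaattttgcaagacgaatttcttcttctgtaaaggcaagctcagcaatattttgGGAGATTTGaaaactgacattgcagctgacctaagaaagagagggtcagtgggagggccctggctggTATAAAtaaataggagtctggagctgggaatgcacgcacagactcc
Pf4: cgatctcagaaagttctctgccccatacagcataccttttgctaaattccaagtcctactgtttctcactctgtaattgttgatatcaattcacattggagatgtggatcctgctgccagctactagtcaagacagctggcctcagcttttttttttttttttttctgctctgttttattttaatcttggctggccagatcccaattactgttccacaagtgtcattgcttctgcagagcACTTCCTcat

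The *Cxcl12* promoter is 64.4% G and C, against a median of 52.4% over 32851 mouse promoters of the same length, and it holds 5 matches to the GC box GGGCGG, of which the last pair share 1 base. A GC box occurs in 32.7% of all promoters. The *Cxcl13* promoter is 42.0% G and C and holds 1 TATAAA (12.4% of all promoters) and 1 GGAGATTTG (0.231% of all promoters), which belongs to a variant NF-κB site known from this gene and from signaling by lymphotoxin. The *Pf4* promoter is 41.2% G and C, and its only match is 1 to the ETS motif AGGAAGT (7.69% of all promoters). None of the 3 held a match to the interferon response motif GAAANNGAA (7.13% of all promoters), to the GATA core GATAA (22.6%), or to the NF-κB consensus (7.25%). The motifs were chosen with the sequences in view, and a match or its absence is a description of these letters.

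The values are log2 fold changes that the authors scaled to 5 house-keeping genes and set relative to the PBS-treated tumors, so that 1 unit is a doubling and the mean of the PBS-treated tumors is 0 for each gene. A level can thus be compared between tumors but not between genes. The barcode counts behind the values are not part of the file used here, the depth is unknown, and the number of tumors limits the precision. Across the file the values ranged from -3.35 to 8.08, no 2 tumors were identical, and none of the 3 genes had a lowest value shared by several tumors, a pattern that *Ccl20*, *Csf3*, and *Cxcl17* had in 5 to 10 tumors. The tests of single genes come from 1 limma fit of all 12 tumors with adjustment over the 43 genes at a threshold of 0.05, and 95% confidence intervals are from the same fit.

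*Cxcl12* rose after NanoISD, with a mean 3.21-fold that of the PBS-treated tumors. Its log2 values in tumors 1 to 4 were 0.11, 0.18, -0.73, and 0.43 after PBS, 1.07, 1.04, 0.41, and 1.78 after D-PDB, and 3.80, 1.01, 0.75, and 1.16 after NanoISD. Each NanoISD-treated tumor exceeded the highest PBS-treated tumor, whereas the D-PDB-treated tumors overlapped both groups, with D-PDB tumor 3 just below PBS tumor 4. The group means were 0.00 ± 0.50 (SD, n = 4) after PBS, 1.08 ± 0.56 (SD, n = 4) after D-PDB, and 1.68 ± 1.42 (SD, n = 4) after NanoISD. The spread after NanoISD came from tumor 1, whose value is a 13.9-fold increase, while the other NanoISD-treated tumors lay within the range of the D-PDB-treated tumors. NanoISD exceeded PBS by 1.68 (standard error 0.60, 95% confidence interval 0.38 to 2.98, adjusted p = 0.0322 in limma). The exact permutation test gave an unadjusted p of 0.0286, the smallest that 4 tumors against 4 allow. Any gene with complete separation has this p, and 41.9% of the panel was so separated. The limma call was lost without NanoISD tumor 1 (difference 0.98) and without PBS tumor 1, 2, or 3 (adjusted p = 0.0548, 0.0569, and 0.0940 in limma). It was also lost when the D-PDB-treated tumors were dropped from the fit (adjusted p = 0.0633 in limma).

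*Cxcl13* had the larger rise after NanoISD, to 8.49-fold of the PBS mean, and also the largest spread. Its log2 values in tumors 1 to 4 were -0.39, 1.69, -1.55, and 0.25 after PBS, 1.05, 1.87, 0.44, and 2.12 after D-PDB, and 6.31, 1.24, 2.45, and 2.34 after NanoISD. NanoISD tumor 1 stood at 79.3-fold of the PBS level, and 3 of the 4 NanoISD-treated tumors lay above every PBS-treated tumor, the exception being NanoISD tumor 2, below PBS tumor 2. The means were 0.00 ± 1.35 (SD, n = 4) after PBS, 1.37 ± 0.77 (SD, n = 4) after D-PDB, and 3.09 ± 2.22 (SD, n = 4) after NanoISD. The gene already varied widely in the controls. Its SD among the PBS-treated tumors ranked 2 of 43 genes, against a median SD of 0.33 over the panel, and its SD after NanoISD ranked 1 of 43. NanoISD exceeded PBS by 3.09 (standard error 0.95, 95% confidence interval 1.03 to 5.14, adjusted p = 0.0169 in limma). The exact permutation test of the same tumors gave an unadjusted p of 0.0571, where 4 tumors against 4 allow no p below 0.0286. Without PBS tumor 3, the lowest tumor, the difference was 2.57 (adjusted p = 0.0552 in limma). Without NanoISD tumor 1, it was 2.01 (adjusted p = 0.0267 in limma).

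*Pf4* did not pass the threshold in any comparison. Its log2 values in tumors 1 to 4 were 0.47, -0.18, -0.45, and 0.15 after PBS, -0.01, -0.04, 0.04, and 1.33 after D-PDB, and 3.02, 0.62, 0.31, and 0.12 after NanoISD. Only NanoISD tumors 1 and 2 lay above all PBS-treated tumors, and 3 of the 4 D-PDB-treated tumors lay within 0.04 of the PBS mean. The means were 0.00 ± 0.40 (SD, n = 4) after PBS, 0.33 ± 0.67 (SD, n = 4) after D-PDB, and 1.02 ± 1.35 (SD, n = 4) after NanoISD. NanoISD differed from PBS by 1.02 (standard error 0.59, 95% confidence interval -0.24 to 2.28, adjusted p = 0.155 in limma), an interval that reaches from a small decrease to a 4.87-fold increase. Without NanoISD tumor 1, the difference was 0.35.

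**Figure D1:**
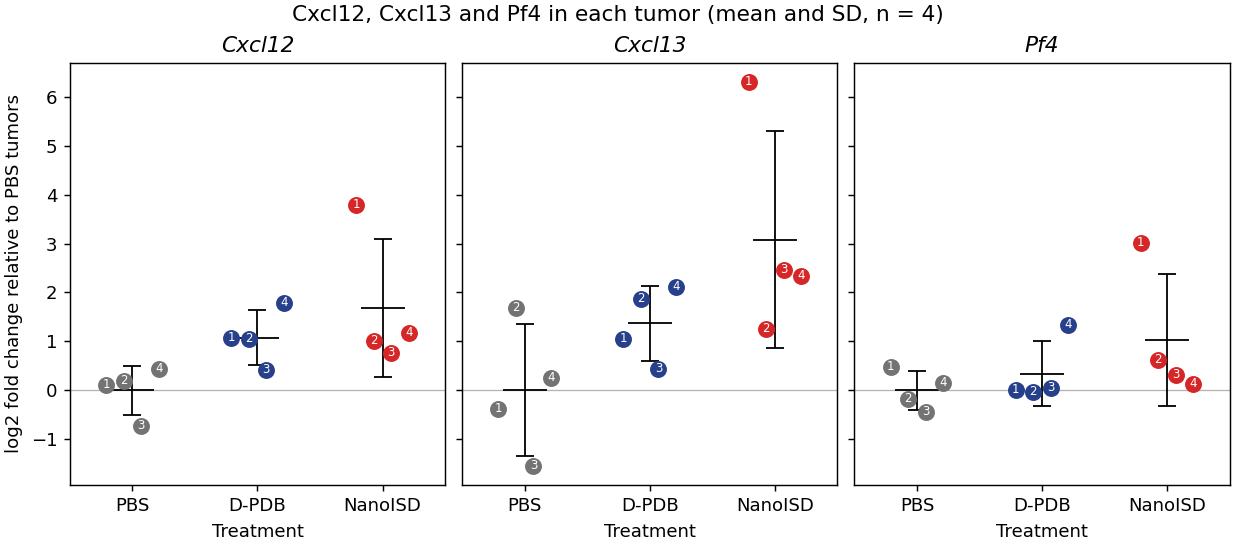
Log2 fold change of *Cxcl12*, *Cxcl13*, and *Pf4* relative to the PBS-treated tumors (vertical axis) by treatment (horizontal axis). Points are single tumors with their numbers, and bars are the mean and SD of 4 tumors. NanoISD tumor 1 is the highest tumor for each gene, at 3.80, 6.31, and 3.02.

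These counts are read against the panel, of which much moved. Between NanoISD and PBS, 51.2% of the 43 genes were called higher in limma, and in 41.9% each NanoISD-treated tumor exceeded the highest PBS-treated tumor. Of the 3 genes, *Cxcl12* and *Cxcl13* were called and *Cxcl12* alone was separated completely, so their share is near that of the whole panel. By the size of the difference, *Cxcl13* ranked 4, *Cxcl12* ranked 18, and *Pf4* ranked 26 of the 43 genes, where the median difference was 1.20.

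Whether the carrier alone moved these genes is addressed by the comparison of D-PDB with PBS. *Cxcl13* and *Cxcl12* had the second and the third largest differences of the panel in that comparison (rank 2 and 3 of 43), 1.37 and 1.08, against a median of 0.25 over the 43 genes. Neither passed the threshold. The difference of *Cxcl13* depended on single controls, and was 0.85 without PBS tumor 3 and 1.93 without PBS tumor 2. For *Cxcl13* the 95% confidence interval was -0.68 to 3.42 (adjusted p = 0.813 in limma). For *Cxcl12* it was -0.22 to 2.38 (adjusted p = 0.689 in limma, unadjusted exact permutation p = 0.0571). The share of genes called higher after D-PDB was 0% in limma, with 1 gene (*Cxcl5*) at an unadjusted p under 0.05, and the share with all 4 D-PDB-treated tumors above all 4 PBS-treated tumors was also 0%. *Cxcl12* came close to such a separation, since D-PDB tumor 3, at 0.41, and PBS tumor 4, at 0.43, were the only pair out of order. *Pf4* differed by 0.33 (95% confidence interval -0.93 to 1.60, adjusted p = 0.831 in limma), and by -0.000833 without D-PDB tumor 4.

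The comparison of NanoISD with D-PDB addresses what the DNA cargo added to the carrier. *Cxcl13* was higher by 1.72 (95% confidence interval -0.34 to 3.77, adjusted p = 0.169 in limma), *Pf4* by 0.69 (95% confidence interval -0.58 to 1.95, adjusted p = 0.340 in limma), and *Cxcl12* by 0.61 (95% confidence interval -0.69 to 1.90, adjusted p = 0.408 in limma). None of the 3 passed, where 25.6% of the panel was called higher and 18.6% of the panel was separated completely. The differences rested on NanoISD tumor 1, without which they were 0.64 for *Cxcl13*, 0.02 for *Pf4*, and -0.10 for *Cxcl12*. For each of the 3 genes the order of the means was PBS, D-PDB, and NanoISD, and neither step between neighbors in that order passed the threshold. NanoISD and PBS, at the ends of that order, differed by the test for *Cxcl12* and *Cxcl13*, and the intervals of the single steps, given above, also hold differences of that size. Both comparisons with PBS share the PBS-treated tumors.

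**Figure D2:**
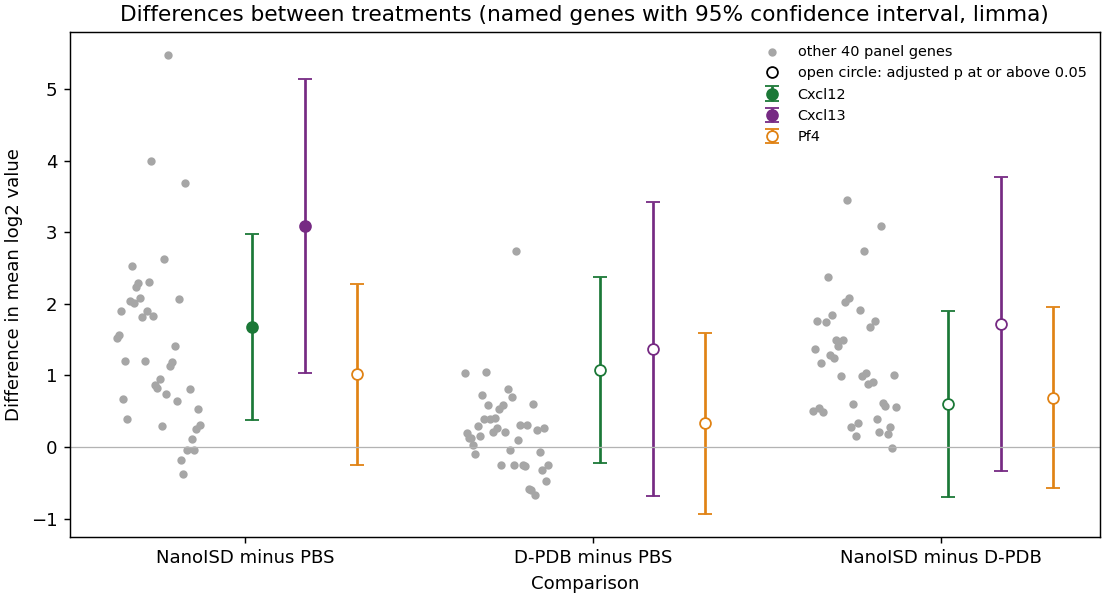
Difference in mean log2 value (vertical axis) for each comparison of treatments (horizontal axis). Colored circles are *Cxcl12*, *Cxcl13*, and *Pf4* with 95% confidence intervals from limma, filled where the adjusted p is under 0.05, and gray points are the other 40 panel genes. Only *Cxcl12* (1.68) and *Cxcl13* (3.09) between NanoISD and PBS are filled.

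Since much of the panel was higher after NanoISD, the genes were also expressed relative to the mean of the other 40 panel genes in each tumor. That mean ranged from -0.19 to 0.23 after PBS, from -0.15 to 0.79 after D-PDB, and from 0.56 to 2.31 after NanoISD, with the highest value in NanoISD tumor 1. On this relative scale *Cxcl12* averaged 0.84 ± 0.24 (SD, n = 4) after D-PDB and 0.26 ± 1.01 (SD, n = 4) after NanoISD, around a mean of 0.00 ± 0.54 (SD, n = 4) after PBS. The 4 D-PDB-treated tumors were close together, between 0.56 and 1.08, and the PBS-treated tumors lay between -0.67 and 0.62. The difference of 0.85 had an exact permutation p of 0.0571 (adjusted over 9 such values, p = 0.514). After NanoISD the relative values of *Cxcl12* ran from 1.49 in tumor 1 to -0.93 in tumor 3, and the difference from PBS was 0.26 (exact permutation p = 0.714), which turned to -0.15 without NanoISD tumor 1. The rise of *Cxcl12* after NanoISD was thus not shown to exceed that of the panel around it.

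For *Cxcl13* the relative values were positive in each of the 8 D-PDB- and NanoISD-treated tumors, between 0.59 and 4.00, but the PBS-treated tumors ran from -1.49 to 1.67. The differences from PBS were 1.66 for NanoISD and 1.14 for D-PDB (exact permutation p = 0.200 for each). Ranked within a tumor by its change relative to PBS, *Cxcl13* was among the first 10 of the 43 genes in all 4 D-PDB- and all 4 NanoISD-treated tumors, but also in 2 of the 4 PBS-treated tumors, where its rank ran from 1 to 43. *Cxcl12* ranked between 5 and 7 in the 4 D-PDB-treated tumors, between 9 and 32 in the NanoISD-treated tumors, and between 1 and 40 in the PBS-treated tumors. *Pf4* ranked between 16 and 36 after NanoISD. It lay below the other genes in NanoISD tumors 3 and 4, by -1.37 and -1.01, and above them in tumor 1, by 0.71, and its relative difference from PBS was -0.40 (exact permutation p = 0.457). None of the 9 relative differences passed the threshold with all tumors included. Each tumor of the compared treatments was also left out in turn for each of the 9 differences. In 3 of these tests the unadjusted exact permutation p was 0.0286, the smallest that 4 tumors against 3 allow. They were *Cxcl12* between D-PDB and PBS without PBS tumor 4 (1.05), *Cxcl12* between NanoISD and D-PDB without NanoISD tumor 1 (-0.99), and *Cxcl13* between D-PDB and PBS without PBS tumor 2 (1.70). Picked from many tests by their p, they support no call.

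**Figure D3:**
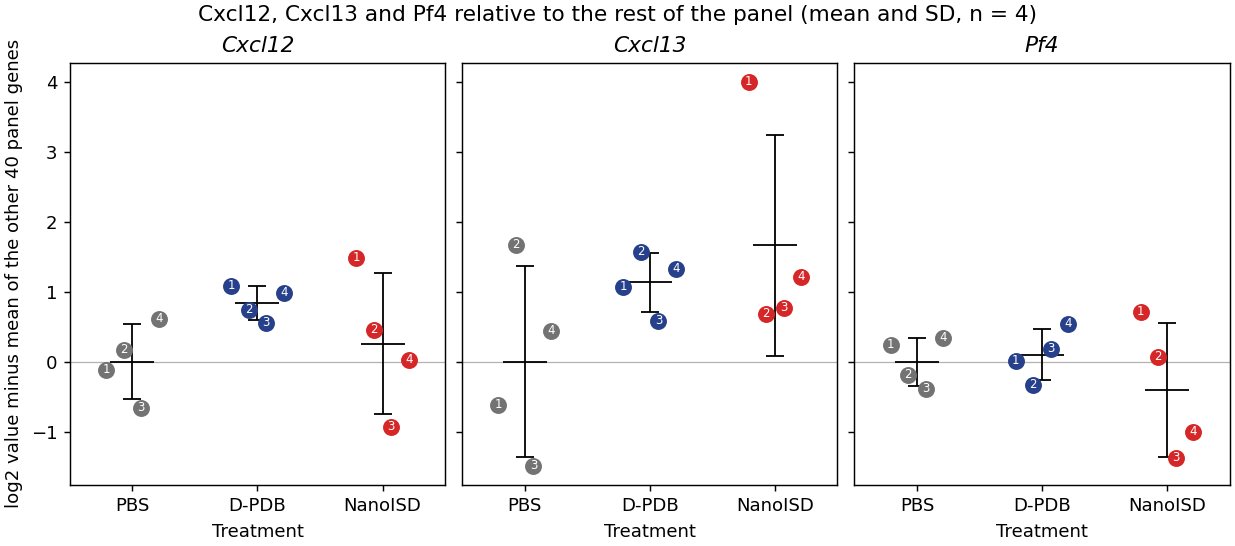
Log2 value of each gene minus the mean of the other 40 panel genes in the same tumor (vertical axis) by treatment (horizontal axis). Points are numbered tumors, and bars are the mean and SD of 4 tumors. *Cxcl12* lies between 0.56 and 1.08 in the D-PDB-treated tumors and between -0.93 and 1.49 in the NanoISD-treated tumors.

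The 3 genes also varied together between tumors of the same treatment. With each tumor expressed as its deviation from the mean of its treatment, the Pearson correlation over 12 tumors was 0.92 between *Cxcl12* and *Pf4* (Spearman rho 0.87), 0.89 between *Cxcl12* and *Cxcl13* (rho 0.85), and 0.75 between *Cxcl13* and *Pf4* (rho 0.69). Exact permutation within the treatments gave p = 0.0127, 0.00666, and 0.0663 for r, and p = 0.0131, 0.00586, and 0.0447 for rho. Adjusted over the 123 pairs of 1 of these genes with a panel gene, the p for r was 0.130, 0.117, and 0.194, and for rho 0.194, 0.123, and 0.275, so none passed. These correlations rested in large part on few tumors. NanoISD tumor 1 and PBS tumor 3 lay farthest from the median of *Cxcl12* and of *Cxcl13*. Without them, r was 0.64 for *Cxcl12* with *Pf4*, 0.46 for *Cxcl12* with *Cxcl13*, and -0.01 for *Cxcl13* with *Pf4*. NanoISD tumor 1 and D-PDB tumor 4 lay farthest from the median of *Pf4*. Without these, r was 0.44 for *Cxcl12* with *Pf4* (exact permutation p = 0.416), 0.64 for *Cxcl12* with *Cxcl13*, and -0.05 for *Cxcl13* with *Pf4*. All values of a tumor share its RNA and its house-keeping scale, and each of the 3 genes correlated positively with most of the panel, with a median r of 0.50, 0.53, and 0.57 over 42 genes for *Cxcl12*, *Cxcl13*, and *Pf4*.

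The pattern most like that of *Cxcl13* was that of *Ccl8*, a chemokine for monocytes (r = 0.92, rho = 0.90, exact permutation p = 0.00195, adjusted p = 0.105), which was also second for *Cxcl12* (r = 0.92, rho = 0.85, exact permutation p = 0.00340, adjusted p = 0.105). Both correlations were lower without NanoISD tumor 1 and PBS tumor 3, at 0.66 and 0.65. The third gene for *Cxcl13*, after *Ccl8* and *Cxcl12*, was *Ccl17*, a ligand of CCR4 (r = 0.79, rho = 0.61, 0.40 without these tumors). After *Cxcl12*, *Pf4* was most like *Ccl22*, another CCR4 ligand (r = 0.92, rho = 0.68), and *Kitl*, which encodes stem cell factor (r = 0.91, rho = 0.71). Without D-PDB tumor 4 and NanoISD tumor 1, the tumors farthest from the median of *Pf4*, r was 0.21 for *Ccl22* and -0.41 for *Kitl*. The likeness of *Pf4* to *Ccl22* and *Kitl* was thus carried by these 2 tumors. Its r with 3 genes near it on chromosome 5 was less affected, at 0.85 for *Cxcl3*, 0.85 for *Cxcl5*, and 0.79 for *Cxcl2* over all tumors and 0.63, 0.66, and 0.74 without them (exact permutation p = 0.00166, 0.00666, and 0.00405 over all tumors, adjusted p = 0.105, 0.117, and 0.105). The rho of these 3 genes over all tumors was 0.73, 0.58, and 0.73. That of *Cxcl5* (exact permutation p = 0.0707) was below the rho of *Ccl22* and of *Kitl*. With the other genes of that row, r went from 0.86 to -0.12 for *Cxcl1*, from 0.78 to 0.15 for *Ppbp*, and from 0.28 to -0.16 for *Cxcl15*.

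**Figure D4:**
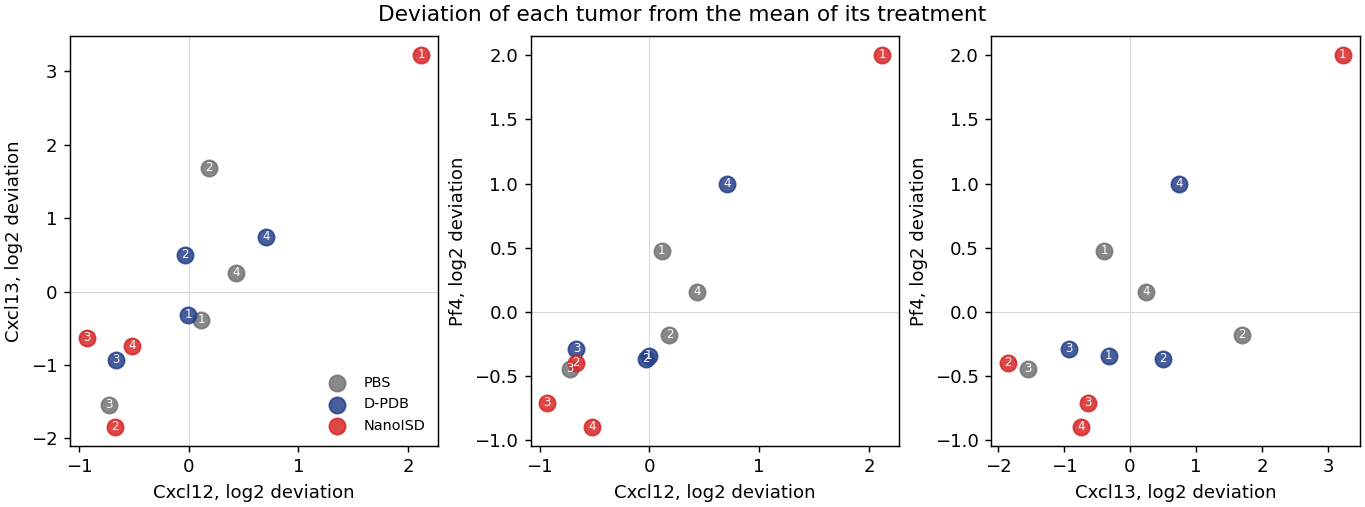
Deviation of each tumor from the mean of its treatment, in log2 units, for each pair of *Cxcl12*, *Cxcl13*, and *Pf4*. Points are 12 tumors with their numbers, colored by treatment. NanoISD tumor 1 lies at the upper right of each plot, and r over all 12 tumors is 0.89, 0.92, and 0.75 from left to right.

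Lists of genes of the same classes were set beside the panel. Each list includes *Cxcl12*, *Cxcl13*, or *Pf4*, so that its median and counts are not independent of these genes. Of 4 constitutive chemokines on the panel (*i.e.* made in tissues without inflammation), *Cxcl12* and *Cxcl13* were called higher after NanoISD than after PBS. Of the whole panel, 51.2% was called in this comparison. *Cxcl14*, an epithelial chemokine, differed by 0.86 (adjusted p = 0.0997 in limma) and *Ccl28*, a mucosal chemokine, by 0.39 (adjusted p = 0.294 in limma). The median of the 4 genes, which include *Cxcl12* and *Cxcl13*, was 1.27, where that of the panel was 1.20. *Cxcl14* and *Ccl28* both lay below the panel median. After D-PDB the median of the 4 genes was 0.83 against 0.25 for the panel, with 0 genes called in the list and 0% of the panel. *Cxcl14* and *Ccl28* differed from PBS by 0.58 and -0.10 there, so that the higher median came with *Cxcl12* and *Cxcl13* themselves. Between NanoISD and D-PDB the median of the 4 genes was 0.55 against 1.01, with 0.28 for *Cxcl14* and 0.49 for *Ccl28*. All 15 CXC chemokines looked for were on the panel, and 7 rose after NanoISD relative to PBS, with a median of 1.14, where 51.2% of the panel was called. None was called after D-PDB relative to PBS (median 0.33), and 3 rose after NanoISD relative to D-PDB (median 0.99), where 25.6% of the panel was called. Among 3 cytokines of lymphoid tissue, whose median difference was 0.12, *Cxcl13* rose. *Lta*, which encodes lymphotoxin alpha, an inducer of *Cxcl13* in follicles, differed by 0.12 (adjusted p = 0.770 in limma), and *Il7*, a survival factor for lymphocytes, by -0.04 (adjusted p = 0.929 in limma). Among 4 factors found in platelet granules, with a median difference of 0.64, the gene that passed was *Ccl5*, which T cells and macrophages also make, with a difference of 2.01 (adjusted p = 0.0155 in limma). *Tgfb1* differed by 0.25 (adjusted p = 0.551 in limma) and *Ppbp*, which encodes the other abundant platelet chemokine, by -0.04 (adjusted p = 0.939 in limma). In the lymphoid and platelet lists, 1 gene each was called between NanoISD and PBS, where 51.2% of the panel was called. Between D-PDB and PBS 0 genes of these lists were called in limma, where 0% of the panel was called. Between NanoISD and D-PDB 0 genes of these lists were called, where 25.6% of the panel was called. With 3 and 4 genes, the lists are too small for these counts to be read as a result.

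*Pf4* lies on chromosome 5 within a row of 7 neighboring chemokine genes that are all on the panel, in the RefSeq order *Cxcl5*, *Ppbp*, *Pf4*, *Cxcl3*, *Cxcl15*, *Cxcl1*, and *Cxcl2*. After NanoISD, 3 of its 6 neighbors rose relative to PBS, a share near the 51.2% of the whole panel, with differences of 5.47 for *Cxcl5*, 2.62 for *Cxcl2*, and 2.30 for *Cxcl1*, which all encode attractants of neutrophils (adjusted p = 0.00117, 0.0115, and 0.0169 in limma). The genes directly beside *Pf4* did not pass, *Ppbp* at -0.04 and *Cxcl3* at 0.74 (adjusted p = 0.361 in limma), nor did *Cxcl15* at 0.82 (adjusted p = 0.0765 in limma). *Pf4*, at 1.02, thus lay between the 3 neighbors that passed and the 3 that did not. Between D-PDB and PBS no gene of the row was called, where 0% of the panel was called. The largest difference of the row there was that of *Cxcl5*, 2.74 (adjusted p = 0.630 in limma). Between NanoISD and D-PDB, 1 of the 6 neighbors was called, *Cxcl1* at 2.03 (adjusted p = 0.0470 in limma), where 25.6% of the panel was called. *Cxcl5*, with the larger difference of 2.73, and *Cxcl2*, at 1.92, fell just short (adjusted p = 0.0516 in limma for each). None of the 4 protein-coding genes on either side of *Cxcl12* or *Cxcl13* is on the panel.

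**Figure D5:**
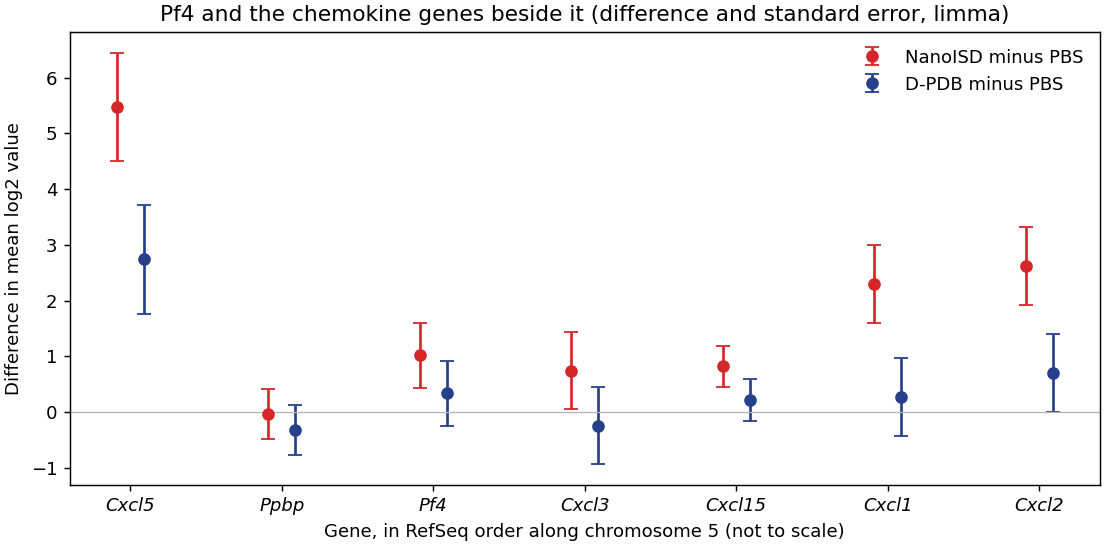
Difference in mean log2 value with its standard error from limma (vertical axis) for *Pf4* and the 6 genes beside it, in their order along chromosome 5 (horizontal axis). Between NanoISD and PBS, *Cxcl5* (5.47), *Cxcl2* (2.62), and *Cxcl1* (2.30) passed the threshold, and *Pf4* (1.02) did not.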

How the data were processed

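RNA (*i.e.* 100 ng per tumor) was hybridized to target-specific fluorescent barcodes, which the NanoString nCounter system counts without amplification. The values deposited by the authors, who used nSolver, are log2 fold changes relative to the house-keeping genes and to the PBS-treated tumors, and cover 43 genes of the panel and 5 house-keeping genes. In the file the PBS mean of each gene lay within 0.0025 of 0 and the mean over the 5 house-keeping genes of each tumor within 0.002 of 0. The nSolver version, background threshold, and counts are not given in the sources used here.

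The values were used as deposited, without a pseudocount. Tumors were grouped and numbered by their titles, which the labels call biological replicates, so that p-values measure the spread between these tumors. No hybridization batch is named in the labels. The genes, lists, and tests were chosen with earlier results of these data known. limma 3.58.1 (R 4.3.3; lmFit, eBayes) was fitted to the 43 genes and 12 tumors in 1 model with Benjamini-Hochberg adjustment over the 43 genes, and was tested on simulated data. Exact permutation tests were two-sided, over 70 assignments of 8 tumors, or over 13824 reorderings within treatments for correlations (scipy 1.17.1 and numpy 2.4.6 under Python 3.11.15; tables in pandas 2.3.3 and plots in matplotlib 3.10.9). Named were the 3 genes, the 3 panel genes most correlated with each, panel genes beside them in RefSeq order, and the members of 4 lists on the panel. All 48 gene names matched RefSeq (GRCm38.p6), 47 by symbol and 1 as a synonym, and promoter sequences are from RefSeq. The alternatives were each tumor left out, only 2 groups in the fit, array weights, robust moderation, the replicate number as a block, each house-keeping gene left out, a filter on genes at a shared lowest value, joint adjustment, and exact tests on the log2 and linear scales. The fit without NanoISD tumor 1 and D-PDB tumor 4, and the difference of *Pf4* from *Ppbp*, were added after seeing the data.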

Additional observations from a re-analysis of the deposited data

Results flagged for a closer look

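Of the 9 groups of 4 tumors formed by 3 genes and 3 treatments, 2 held a tumor that lay far from the rest. The measure was Dixon's limit on the gap to the nearest tumor as a share of the range of the group. Chance gives a gap past this limit in about 5% of single groups. The 3 genes of a treatment share the same tumors, so the 9 groups are not independent. The share of the other panel genes past the limit was not tested. The count of 2 thus cannot be read as more than the panel gives. For *Cxcl12* after NanoISD, tumor 1 lay at 3.80 and the next at 1.16, a gap of 0.866 of the range. In the D-PDB group *Pf4* stood at 1.33 in tumor 4 and at 0.04 in the next, a gap of 0.942 of the range. *Pf4* after NanoISD came just short of the limit, with tumor 1 at 3.02 and a gap of 0.828. The mean of the other 40 panel genes was also the highest of its group in both tumors, at 2.31 in NanoISD tumor 1 and 0.79 in D-PDB tumor 4, and its part in these values was not tested. Without both tumors, NanoISD differed from PBS by 0.98 for *Cxcl12* (adjusted p = 0.0360 in limma) and by 0.35 for *Pf4* (adjusted p = 0.323 in limma). *Cxcl12* thus kept its call in this fit, which was added after seeing the data. Without NanoISD tumor 1 alone, its difference was also 0.98 and the call was lost (adjusted p = 0.0578 in limma).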

How the results depend on the processing

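In limma, the rise of *Cxcl12* after NanoISD relative to PBS (1.68) lost its call in 6 of 26 alternatives. These were only 2 groups in the fit (1.68, adjusted p = 0.0633), joint adjustment over the 3 comparisons (1.68, adjusted p = 0.0585), and PBS tumor 1, 2, or 3 or NanoISD tumor 1 left out. Over all 12 single tumors left out, the difference ranged from 0.98 to 1.99. That of *Cxcl13* (3.09) lost its call in 3 of 26, with the exact permutation test of the log2 values (3.09, p = 0.0571) and of the linear values (4.06 as the log2 ratio of means, exact p = 0.0571), and without PBS tumor 3. Its range over single tumors left out was 2.01 to 3.70. The other 7 differences gained no call, and 2 of them turned. *Cxcl12* between NanoISD and D-PDB ranged from -0.10 to 0.92 over single tumors left out, and *Pf4* between D-PDB and PBS from -0.000833 to 0.49, and it was -0.000833 without NanoISD tumor 1 and D-PDB tumor 4 together. Rescaling without any 1 house-keeping gene changed no call or direction of the 9 differences.

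Relative to the other panel genes, *Cxcl12* between NanoISD and PBS ranged from -0.15 to 0.66 over single tumors left out and was -0.15 without both tumors. *Cxcl13* between NanoISD and D-PDB ranged from -0.25 to 0.85 and was -0.19 without both. *Pf4* between D-PDB and PBS ranged from -0.047 to 0.25, with -0.028 without PBS tumor 3 and -0.047 without both. The correlation of *Cxcl13* with *Pf4* was -0.012 without the 2 farthest tumors and -0.052 without NanoISD tumor 1 and D-PDB tumor 4. The number of panel genes called between NanoISD and D-PDB (11) was 2 with only these groups in the fit and 5 to 20 with single tumors left out, none of them *Cxcl12*, *Cxcl13*, or *Pf4*. The cause of these changes was not tested.

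The tumor numbers are not stated to pair the tumors, and 3 of 12 same-numbered pairs correlated above 0.1. With the number as a replicate block, *Cxcl12*, *Cxcl13*, and *Pf4* differed between NanoISD and PBS by 1.68, 3.09, and 1.02, and no call of the 9 differences changed. The precision is limited by the 4 tumors of each treatment, and counting error is unknown.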

Other observations

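*Pf4* and *Ppbp*, the chemokines that are most abundant in platelets and whose genes lie side by side, were set against each other, a pair chosen after their values were seen, so that the p-values below describe these tumors and support no call. The log2 value of *Pf4* minus that of *Ppbp* was 0.39, -0.65, -0.24, and 0.49 in PBS tumors 1 to 4, 1.18, 0.55, -0.12, and 0.99 in D-PDB tumors, and 1.94, 0.83, 0.67, and 0.77 in NanoISD tumors. Each NanoISD-treated tumor exceeded the highest PBS-treated tumor, and the means differed by 1.06 (exact permutation p = 0.0286, the smallest that 4 tumors against 4 allow, and 0.0857 adjusted over the 3 comparisons of treatments). Between D-PDB and PBS the difference was 0.65 (exact permutation p = 0.143). Between NanoISD and D-PDB it was 0.40 (exact permutation p = 0.457), and 0.11 without NanoISD tumor 1. With single tumors left out, the difference between NanoISD and PBS ranged from 0.76 to 1.22, and its exact p was above 0.05 in 4 of 8 cases, without NanoISD tumor 1, 2, or 4 or PBS tumor 2. Neither gene was called in limma.

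The tumor-to-tumor pattern of *Cxcl12* was also set beside that of *Cxcl9*, *Cxcl10*, and *Cxcl11*, the interferon-induced ligands of CXCR3. NanoISD tumor 3 had the lowest *Cxcl12* of its group, 0.75, and the highest *Cxcl10*, 5.64, whereas tumor 1 had the highest *Cxcl12*, 3.80, and a *Cxcl10* of 3.59. Tumor 2 had a *Cxcl12* of 1.01 and the lowest *Cxcl10* of the group, 2.07, and tumor 4 had 1.16 and 4.67. Over the 12 tumors, the deviations of *Cxcl12* from the treatment means correlated with those of *Cxcl10* at r = -0.18 (rho = -0.35, exact permutation p = 0.772 and 0.416). With *Cxcl11* r was -0.22 and with *Cxcl9* 0.03, whereas with *Ccl8*, named above for its high correlation, r was 0.92. Without the 2 tumors farthest from the median of *Cxcl12*, r was -0.15 for *Cxcl10*, -0.04 for *Cxcl11*, 0.43 for *Cxcl9*, and 0.65 for *Ccl8*. Over single tumors left out, r ranged from -0.69 to 0.11 for *Cxcl10* and from -0.69 to 0.13 for *Cxcl11*. It ranged from -0.36 to 0.31 for *Cxcl9* and from 0.77 to 0.96 for *Ccl8*. None of the correlations over the 12 tumors passed adjustment over the 123 pairs, and the difference between the correlations was not tested.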
